A study of Mus musculus with 6 samples.

Results

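Primary mouse vascular smooth muscle cells carrying a miR-128 lentivirus were compared with the same kind of cells carrying the second of 2 scrambled control vectors. The rule took every gene with a detection p-value under 0.05 on both arrays of at least one group, a value that tests a probe's brightness against the array's background. It kept 8336 of the 16593 genes that had a named probe (50.2%), each represented by its brightest passing probe.

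The miR-128 cells are labelled mir128 and their control cells shScr2, with 2 biological replicates each, called A and B. The cells of every group came from C57BL/6J mice aged 8 weeks. They received lentiviral particles expressing either miR-128 or a scrambled miRNA, went through 2 days of puromycin selection, and gave total RNA after 5 days. A further scrambled group, shScr1, with 2 replicates, entered the same fit and is used beside shScr2 only to show where a change depends on the control. The vector's promoter, the difference between the scrambled sequences, the number of animals pooled and any slide, scan or extraction batch were not stated in the labels or files.

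Vascular smooth muscle cells form the contractile layer of the artery wall. A contractile cell makes large amounts of smooth muscle actin, myosin and their regulators under serum response factor (SRF) and its partner myocardin, which act through CArG boxes in promoters. In culture or after vessel injury such cells lose this programme, divide, migrate and deposit matrix. MicroRNAs lower the level or translation of messenger RNAs whose 3′ ends pair with the seed, the bases near the microRNA's 5′ end.

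The sequence of the expressed microRNA is shown because its seed defines the messages it can pair with. RefSeq (GRCm38.p6) gives the same 3p arm at 2 loci, Mir128-1 at chr1:128202404-128202424 on the plus strand and Mir128-2 at chr9:112118644-112118664 on the minus strand. The labels do not say which locus or arm the vector carries. Capitals mark the seed, bases 2 to 8.
mmu-miR-128-3p: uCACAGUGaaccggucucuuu
mmu-miR-128-1-5p: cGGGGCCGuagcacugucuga
mmu-miR-128-2-5p: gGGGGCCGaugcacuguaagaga
Of the 1679 mature mouse microRNAs listed there, 0 besides miR-128-3p itself held the 3p seed. The level of the mature microRNA in the cells was not analysed here. The host genes Arpp21 and R3hdm1 did not pass the detection rule.

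Between 12343 and 13277 probes were detected on the mir128 arrays and between 11694 and 11903 on the shScr2 arrays. Over the genes tested, replicates A and B of mir128 differed with an SD of 0.533 log2 units, against 0.286 for shScr2. All levels below are normalised log2 intensities, whose median over genes was 7.86 and whose highest value was 15.01, and the number of arrays limits their precision. The cells were checked against cell type markers. Acta2, smooth muscle actin, read 14.39 and 14.82 in mir128 cells, against 14.32 and 14.34 in shScr2 cells, among the brightest signals. Myh11, smooth muscle myosin and the marker most restricted to contractile cells, was detected on both mir128 arrays and on 0 shScr2 arrays, and Cnn1, calponin, was undetected on all of them. Of 8 endothelial markers, 5 were undetected on every mir128 and shScr2 array, among them Pecam1, Cdh5 and Vwf, and the summed linear level was 183 and 202 in mir128 cells, against 205 and 220 in shScr2 cells. Of 6 leukocyte markers, Ptprc, Adgre1 and Itgam were undetected on all 4 arrays. The sum was 456 and 488 in mir128 cells, against 682 and 694 in shScr2 cells. Cd14, the brightest of these markers, read 8.04 and 7.52 in mir128 cells, against 9.12 and 9.10 in shScr2 cells, and was called lower. Lyz2 and Cd3e were called higher, against the direction of the sum.

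Across the 8336 genes, 2184 differed between mir128 and shScr2 cells at a Benjamini-Hochberg adjusted p under 0.05 in the limma fit (26.2%), 1179 of them higher with miR-128 (14.1%) and 1005 lower (12.1%). At least a 2-fold change was estimated for 1034 of them, 590 higher and 444 lower. For 5474 genes (65.7%) both mir128 arrays lay beyond both shScr2 arrays on the same side, and this held for all 2184 called genes. The median change of all genes was 0.02. There were 417 genes detected on both mir128 arrays and on 0 shScr2 arrays, of which 184 were called higher. The opposite pattern held for 78 genes, of which 40 were called lower. Such genes entered through the arrays of a single group, which fixes the direction of their calls, and more probes were detected on the mir128 arrays. With arrays scaled to a common median the split was 1351 higher and 378 lower, and the median of all genes 0.28. The count depended on single arrays: 372 genes were called without shScr2 replicate A, 337 without shScr2 replicate B, 1099 without shScr1 replicate A and 1095 without shScr1 replicate B. With either mir128 array left out more genes were called, 2696 without replicate A and 3328 without replicate B. Of the 136 called genes followed by name, 90 had a log2 change over 1.5 times smaller in the authors' processed values. Fewer cells of a type and less RNA per cell cannot be told apart in RNA pooled over a culture.

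**Figure D1:**
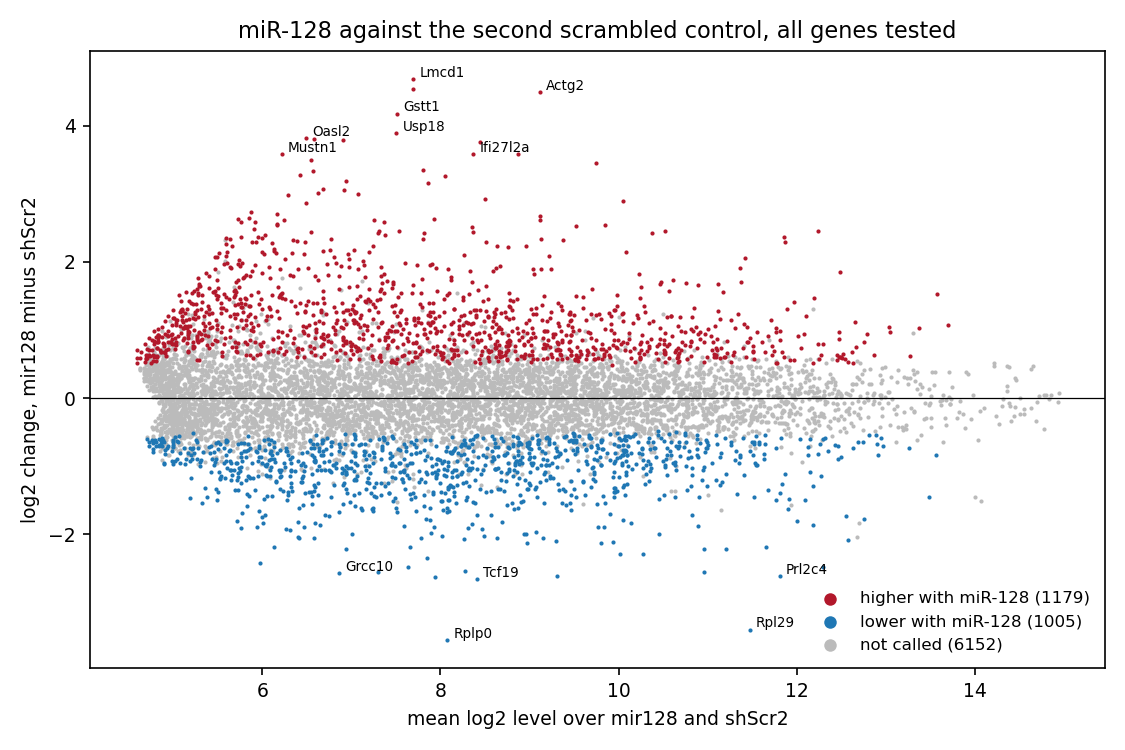
Each point is 1 of the 8336 genes tested, with the mean log2 level over the mir128 and shScr2 groups on the horizontal axis and the log2 change, mir128 minus shScr2, on the vertical axis. Red points (1179) were called higher with miR-128, blue points (1005) lower and grey points (6152) were not called; some of the 24 largest changes carry their names.

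Of the 12 largest rises, 5 were in genes of the contractile and striated muscle lists. Lmcd1, a LIM protein of cardiac and smooth muscle, read 9.85 and 10.23 in mir128 cells, against 5.63 and 5.07 in shScr2 cells, a log2 change of 4.69 ± 0.27 (SE of limma, as throughout; adjusted p = 0.000757) or 25.8-fold. Tagln, the actin-binding protein SM22α, read 9.79 and 10.13 in mir128 cells, against 5.27 and 5.57 in shScr2 cells (4.54 ± 0.20, adjusted p = 0.000343). Actg2, the smooth muscle γ-actin of visceral muscle, read 11.02 and 11.70 in mir128 cells, against 6.90 and 6.84 in shScr2 cells (4.49 ± 0.25, adjusted p = 0.000757). In all 3 genes every mir128 array lay more than 4 log2 units above every shScr2 array. Asb2, a ubiquitin ligase subunit of muscle, was not detected on either shScr2 array and was at least 11.7-fold higher in mir128 cells (adjusted p = 0.000757). Mustn1, a small nuclear protein of muscle and bone, was likewise undetected in shScr2 cells and at least 8.41-fold higher in mir128 cells (adjusted p = 0.000343). A bound of this kind sets the mir128 level against the lowest detected level on the shScr2 arrays. Here and below, such bounds hold for this background correction alone.

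Among the other large rises, Gstt1, a glutathione transferase, read 9.12 and 10.08 in mir128 cells, against 5.53 and 5.31 in shScr2 cells (4.18 ± 0.31, adjusted p = 0.00133). Gadd45a, a stress and DNA damage response gene, read 10.42 and 10.92 in mir128 cells, against 6.89 and 7.28 in shScr2 cells (3.59 ± 0.23, adjusted p = 0.000795). Neither gene's groups came near each other. A further 4 genes of the 12 largest rises, Usp18, Oasl2, Ifit3 and Ifi27l2a, belong to the interferon response and are described with it. Fam210b, a mitochondrial protein, differed between replicates, at 9.71 and 7.89 in mir128 cells, against 5.40 and 4.63 in shScr2 cells (3.79 ± 0.57, adjusted p = 0.0075). Detected on only 1 shScr2 array, Fam210b passed the detection rule through the mir128 arrays alone, which favours a rise. Its change was 1.14 in the authors' processed values. Without shScr2 replicate B, Usp18 and Fam210b no longer passed the threshold, while the other 10 of the 12 passed with any array left out. Their log2 changes were smaller in the authors' processed values, 1.87 for Lmcd1, 1.80 for Tagln, 1.54 for Gstt1, 0.92 for Asb2 and 0.73 for Mustn1.

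The 2 largest falls were in ribosomal protein genes. Rplp0, a stalk protein of the large ribosomal subunit, read 6.40 and 6.21 in mir128 cells, against 9.85 and 9.84 in shScr2 cells (-3.55 ± 0.15, adjusted p = 0.000343). Rpl29, another large subunit protein, read 9.80 and 9.75 in mir128 cells, against 13.13 and 13.21 in shScr2 cells (-3.40 ± 0.15, adjusted p = 0.000343), and its second probe gave -3.39. The groups of both genes were tight and far apart. Stt3b, a catalytic subunit of the oligosaccharyltransferase that glycosylates proteins in the endoplasmic reticulum, read 9.71 and 9.65 in mir128 cells, against 12.25 and 12.21 in shScr2 cells (-2.55 ± 0.15, adjusted p = 0.000757). The change of Rpl29 lay between -3.49 and -3.22 and that of Stt3b between -2.63 and -2.29 under every alternative and with every array left out. Rplp0, a dimmer signal, changed by -1.57 in the authors' processed values and by -2.56 without background correction.

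Tcf19, a transcription factor gene active in dividing cells, fell by 2.66 ± 0.26 (adjusted p = 0.00246), Tmem30a, a subunit of lipid flippases, by 2.56 ± 0.22 (adjusted p = 0.0017) and Pus7l, a pseudouridine synthase family gene, by 2.48 ± 0.18 (adjusted p = 0.00133). Grcc10 fell by 2.57 ± 0.29 (adjusted p = 0.00337) and Ydjc by 2.54 ± 0.29 (adjusted p = 0.00372). In the authors' processed values these changes were -1.30 for Tcf19, -0.82 for Tmem30a, -0.91 for Pus7l, -0.67 for Grcc10 and -1.18 for Ydjc, each still called. Snrnp70, a U1 spliceosomal protein, differed between replicates, at 5.82 and 7.41 in mir128 cells, against 9.09 and 9.40 in shScr2 cells (-2.63 ± 0.48, adjusted p = 0.0122), and so did the histone gene H2ac21, at 7.09 and 8.91 in mir128 cells, against 10.67 and 10.54 in shScr2 cells (-2.61 ± 0.53, adjusted p = 0.0177). Prl2c4 and Prl2c3, near-identical proliferin genes whose probes cannot be assumed to tell them apart, changed by -2.62 ± 0.38 (adjusted p = 0.00665) and -2.48 ± 0.35 (adjusted p = 0.00638). Snrnp70, H2ac21, Prl2c4 and Prl2c3 no longer passed without shScr2 replicate A or without replicate B.

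**Figure D2:**
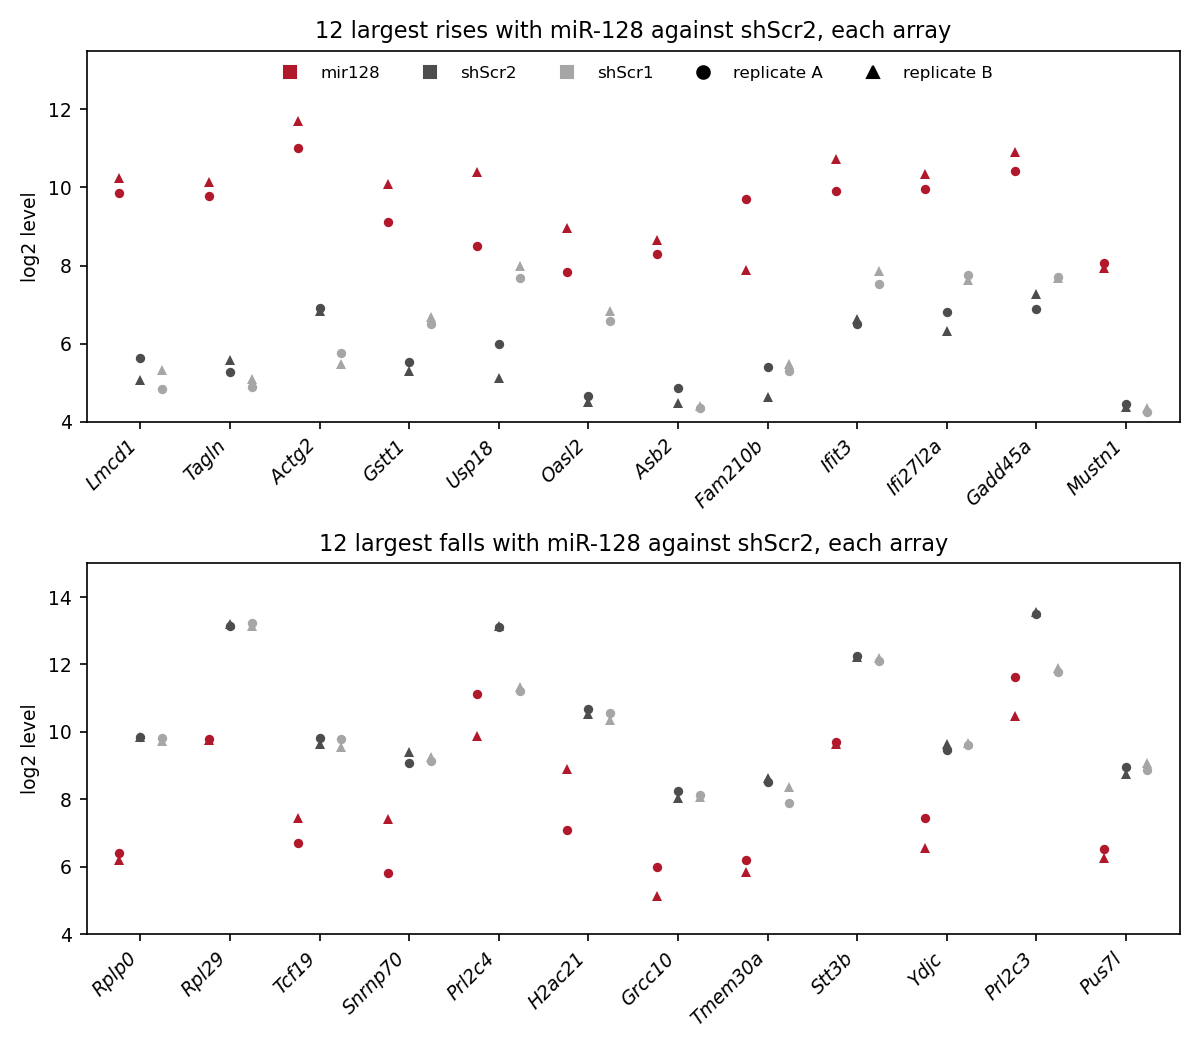
Log2 level on each array for the 12 largest rises (top) and the 12 largest falls (bottom), with mir128 in red, shScr2 in dark grey and shScr1 in light grey, circles for replicate A and triangles for replicate B. Both mir128 arrays lie beyond both shScr2 arrays in every gene; Usp18, Fam210b, Snrnp70 and H2ac21 have mir128 replicates more than 1.5 log2 units apart, and Usp18, Oasl2, Prl2c4 and Prl2c3 have shScr1 levels nearer to mir128 than to shScr2.

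Smooth muscle contractile genes were higher in mir128 cells. Of 13 measured members 10 were called higher and 0 lower, beside 14.1% and 12.1% of all genes. Their median log2 change was 1.29, or 1.08 with the 3 members undetected in shScr2 cells at their bound. With no detection filter 11 of 19 were called higher, with a median of 0.94. Lmod1, Mrvi1, Myh11, Mylk and Synm passed the detection rule through the mir128 arrays alone, which favours a rise. Of the 8 members detected on all 4 arrays, 6 were called higher, with a median of 1.16. Lmod1, leiomodin, which nucleates actin filaments, read 8.42 and 8.03 in mir128 cells, against 4.98 and 4.83 in shScr2 cells (3.33 ± 0.18, adjusted p = 0.000757). Mrvi1, a cGMP kinase substrate that restrains calcium release, was at least 4.73-fold higher (adjusted p = 0.000877). Myh11 was at least 2.11-fold higher (adjusted p = 0.00566), at 5.76 and 6.27 in mir128 cells, against 4.33 and 4.57 on shScr2 arrays where it was not detected. Myh11 thus stayed a dim signal in mir128 cells. In the authors' processed values the log2 change was 0.43 for Mrvi1 and 0.19 for Myh11. Those values gave 9 of 13 contractile members called higher, with a median of 0.78.

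Tropomyosins stabilise the actin filament. Tpm1, tropomyosin 1, read 14.62 and 14.07 in mir128 cells, against 12.91 and 12.72 in shScr2 cells (1.53 ± 0.22, adjusted p = 0.00649), and Tpm2, tropomyosin 2, read 11.30 and 11.48 in mir128 cells, against 10.36 and 10.34 in shScr2 cells (1.04 ± 0.15, adjusted p = 0.00676). Smtn, smoothelin, changed by 1.29 ± 0.17 and Vcl, vinculin, by 0.94 ± 0.20 (adjusted p = 0.00566 and 0.0195). The probes of Acta2 disagreed. The brightest, used here, gave 0.27 ± 0.19 (adjusted p = 0.317) near the top of the scale, while the other 3 gave 2.91, 2.74 and 2.30, and the mean over the probes gave 2.06 (adjusted p = 0.00141). Synm, synemin, at 0.29, and Cald1, caldesmon, at 0.18 did not pass the test. Without shScr2 replicate A 5 of 14 members were called and without replicate B 5 of 13, and Myh11 was lost without replicate A (adjusted p = 0.0521).

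In a list of striated muscle and cardiac stress genes 9 of 18 members with a probe passed the detection rule. These 9 were called higher, beside 14.1% of all genes. Mustn1, Asb2, Nppa and Myl7 passed the rule through the mir128 arrays alone, which fixes their direction. With no detection filter 9 of 18 were called higher and the median was 0.63, against 2.33 over the 9. Besides Lmcd1, Asb2 and Mustn1, Acta1, skeletal α-actin, read 10.56 and 8.80 in mir128 cells, against 6.38 and 6.47 in shScr2 cells (3.26 ± 0.51, adjusted p = 0.00805). Nppb, the B-type natriuretic peptide gene, read 10.86 and 9.71 in mir128 cells, against 8.06 and 7.86 in shScr2 cells (2.33 ± 0.36, adjusted p = 0.00799). Nppa, the atrial peptide gene, was at least 2.33-fold higher (adjusted p = 0.00156) and Myl7, atrial myosin light chain, at least 2.55-fold higher (adjusted p = 0.0172). Both were undetected on the shScr2 arrays, and Nppa had a log2 change of 0.21 in the authors' processed values. Ankrd1, a stretch-responsive titin-binding protein, changed by 1.91 ± 0.31 (adjusted p = 0.00877) and Tnnc1, cardiac troponin C, by 1.10 ± 0.19 (adjusted p = 0.0104). The markers that define striated muscle itself stayed at background: of 7 with a probe, Myh6, Myh7, Tnni3, Ckm and Ryr2 were undetected on all 4 arrays and 0 were detected on both arrays of either group. Without shScr2 replicate A 4 of 10 measured genes were called, and without replicate B also 4 of 10.

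Among regulators of the contractile phenotype 6 of 14 were called higher and 0 lower, beside 14.1% and 12.1% of all genes. The median was 0.66, or 0.13 with 6 of 21 called higher when no detection filter was set. Fhl1, a LIM protein of muscle, read 13.43 and 13.52 in mir128 cells, against 11.06 and 10.98 in shScr2 cells (2.45 ± 0.15, adjusted p = 0.000757). Csrp1, a LIM partner of SRF, read 13.20 and 12.85 in mir128 cells, against 10.76 and 10.68 in shScr2 cells (2.30 ± 0.18, adjusted p = 0.00133). Both genes were bright in each group and kept their calls with any array left out. Srf read 11.16 and 10.79 in mir128 cells, against 10 and 9.90 in shScr2 cells (1.03 ± 0.18, adjusted p = 0.0104), but a second, dim probe gave -0.11 and the mean of both probes 0.46 (adjusted p = 0.191). Srf no longer passed without shScr2 replicate A (adjusted p = 0.0694) or replicate B (adjusted p = 0.0867). Klf4, which represses contractile genes, changed by 0.08 (adjusted p = 0.816), and its other probes by 0.10 and 0.46. Klf5, which favours the dividing state, changed by 0.86 ± 0.16 (adjusted p = 0.0125). Myocd, myocardin, did not pass the detection rule. Of the 14, 2 were called without shScr2 replicate A and 2 without replicate B.

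Genes of focal adhesions, where actin bundles meet the matrix, had a median of 0.55. Of 16 measured 8 were called higher and 1 lower, beside 14.1% and 12.1% of all genes. Lims2, PINCH-2, read 11.41 and 11.54 in mir128 cells, against 7.99 and 8.05 in shScr2 cells (3.45 ± 0.15, adjusted p = 0.000343). Its binding partner Ilk, integrin-linked kinase, read 12.34 and 12.23 in mir128 cells, against 11.11 and 11.17 in shScr2 cells (1.15 ± 0.15, adjusted p = 0.00484). Fblim1, migfilin, changed by 1.51 ± 0.16 and Fermt2, kindlin-2, by 1.03 ± 0.15 (adjusted p = 0.00293 and 0.00717). The paralogue Lims1, PINCH-1, was the member called lower, at -0.66 ± 0.16 (adjusted p = 0.0279); it was undetected in mir128 cells, its change was 0.41 with a detection rule of at least 2 of the 6 arrays and 0.79 without mir128 replicate B. Zyx, zyxin, at 14.81 and 14.85 in mir128 cells, against 14.82 and 14.87 in shScr2 cells, and Pxn, paxillin, did not pass the test. Without either shScr2 array, Ilk and Fermt2 lost their calls and 2 of the 16 members were called.

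DNA replication genes were lower in mir128 cells, with a median of -1.25. Of 26 measured members 18 were called lower and 0 higher, beside 12.1% and 14.1% of all genes. With no detection filter 12 of 27 were called lower. Pola2, a subunit of the primase complex, read 6.87 and 7.03 in mir128 cells, against 8.71 and 8.75 in shScr2 cells (-1.78 ± 0.15, adjusted p = 0.00168). Lig1, which joins Okazaki fragments, read 7.06 and 7.65 in mir128 cells, against 9.28 and 9.25 in shScr2 cells (-1.91 ± 0.23, adjusted p = 0.0043). The nucleotide synthesis gene Rrm2 changed by -1.72 ± 0.24 and the origin licensing factor Cdc6 by -1.65 ± 0.23 (adjusted p = 0.00609 and 0.00641). Of the MCM helicase genes, Mcm7 read 6.29 and 8.16 in mir128 cells, against 9.29 and 9.31 in shScr2 cells (-2.07 ± 0.54, adjusted p = 0.0356). Mcm2, Mcm3 and Mcm5 were also called lower, at -1.16, -1.24 and -1.26, while Mcm4 at -0.72 and Mcm6 at -0.76 did not pass.

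Mitosis genes showed the same direction, with 14 of 19 called lower and 0 higher, beside 12.1% and 14.1% of all genes. Their median was -1.30. With no detection filter 7 of 26 were called lower, with a median of -1.08. Top2a, topoisomerase II of chromosome condensation, read 7.55 and 8.37 in mir128 cells, against 9.90 and 10.02 in shScr2 cells (-2.0 ± 0.27, adjusted p = 0.00566). Birc5, survivin, read 8.96 and 10.73 in mir128 cells, against 12.04 and 12.10 in shScr2 cells (-2.22 ± 0.51, adjusted p = 0.0253). Cdk1, the mitotic kinase, read 10.08 and 10.92 in mir128 cells, against 11.79 and 11.77 in shScr2 cells (-1.28 ± 0.27, adjusted p = 0.0203). In all 3 genes mir128 replicate A was the lower of the pair. Ccna2, cyclin A2, a dim signal, was at least 1.64-fold lower (adjusted p = 0.00954), but it was undetected in shScr1 cells too, with a change of -0.21 (adjusted p = 0.36). Mad2l1, a spindle checkpoint gene, changed by -1.90 ± 0.36 (adjusted p = 0.0136). Plk1 and Foxm1 did not pass, at -1.37 and -0.94. Anln, anillin, at 11.25 and 12.43 in mir128 cells, against 12.08 and 11.94 in shScr2 cells, had overlapping groups.

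The replicates differed in the size of these falls. Against the shScr2 mean, the median over the replication list was -1.64 on mir128 replicate A and -0.85 on replicate B, and over the mitosis list -1.87 on replicate A and -0.86 on replicate B. The calls rested on both shScr2 arrays. Without shScr2 replicate A 3 replication and 1 mitosis genes were called, and without replicate B 3 replication and 0 mitosis genes, although the medians stayed at -1.22 for replication and at -1.30 and -1.29 for mitosis. In the fit without shScr2 replicate B Top2a and Rrm2 were among those lost, while Pola2 and Lig1 kept their calls with any array left out. Without either 1 of the shScr1 arrays 9 replication and 4 mitosis genes were called. In the authors' processed values 16 replication and 9 mitosis genes were called lower, with medians of -0.72 and -0.64.

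Inhibitors of the cell cycle kinases were called higher in 2 of 6 cases, beside 14.1% of all genes, and the list median was -0.04. Cdkn1a, p21, read 13 and 12.85 in mir128 cells, against 11.43 and 11.48 in shScr2 cells (1.47 ± 0.15, adjusted p = 0.00275), a 2.77-fold rise that passed with any array left out. Cdkn2b, p15, read 8.95 and 8.39 in mir128 cells, against 7.0 and 6.83 in shScr2 cells (1.75 ± 0.23, adjusted p = 0.00513), and was lost without shScr2 replicate B. Cdkn2a, Cdkn1b, Cdkn2c and Cdkn2d did not pass. Cdkn1a and Gadd45a also stand in a list of p53 targets, with a median of 0.63. In that list 10 of 19 were called higher and 1 lower, beside 14.1% and 12.1% of all genes. Phlda3, a p53-induced repressor of AKT, read 12.65 and 12.72 in mir128 cells, against 11.23 and 11.31 in shScr2 cells (1.41 ± 0.15, adjusted p = 0.00282). Mdm2, which degrades p53, changed by 0.94 ± 0.19, and the death receptor gene Fas by 0.96 ± 0.16 (adjusted p = 0.0185 and 0.0088). The member called lower was Tnfrsf10b, a TRAIL receptor, at -0.98 ± 0.21 (adjusted p = 0.0208), which lost its call without any 1 of the shScr2 or shScr1 arrays. Without shScr2 replicate A 5 of 19 were called higher, and without replicate B 5 of 20.

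Interferon-stimulated genes are those that cells switch on in response to interferons or foreign nucleic acid. They were called higher in 17 of 28 cases and lower in 0, beside 14.1% and 12.1% of all genes, with a median of 1.29. When no detection filter was set, 13 of 42 were called higher, with a median of 0.68. Of the 19 members detected on all 4 arrays of mir128 and shScr2, 11 were called higher, with a median of 1.20. Ifit3, an antiviral tetratricopeptide protein, read 9.91 and 10.73 in mir128 cells, against 6.49 and 6.63 in shScr2 cells (3.76 ± 0.29, adjusted p = 0.00133). Ifi27l2a read 9.97 and 10.35 in mir128 cells, against 6.81 and 6.33 in shScr2 cells (3.59 ± 0.22, adjusted p = 0.000757). Gbp2, a guanylate-binding GTPase, read 9.22 and 9.65 in mir128 cells, against 6.33 and 6.22 in shScr2 cells (3.16 ± 0.19, adjusted p = 0.000757). The mean over the probes of Gbp2 gave 1.95. These 3 genes had clearly separate groups and kept their calls with any array left out. Oasl2, of the oligoadenylate synthetase family, was undetected in shScr2 cells and at least 11-fold higher in mir128 cells (adjusted p = 0.00209). Its second probe, a dim one, gave a log2 change of 0.71, and the mean over its probes gave 2.26. The authors' processed values gave 0.92 for Oasl2.

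The mir128 replicates differed in this response as well, with a list median of 0.82 on replicate A and 1.70 on replicate B. Isg15, a ubiquitin-like modifier, read 8.14 and 10.80 in mir128 cells, against 6.21 and 6.04 in shScr2 cells (3.35 ± 0.76, adjusted p = 0.024), and Usp18, which removes it from proteins, read 8.50 and 10.39 in mir128 cells, against 5.99 and 5.13 in shScr2 cells (3.89 ± 0.60, adjusted p = 0.00777). For both genes replicate B was the higher. Against shScr1, where Usp18 read 7.67 and 7.99 and Isg15 8.09 and 7.98, the changes were 1.61 and 1.44, and neither was called (adjusted p = 0.0938 and 0.204). Irf9, at 1.29, and Stat2, at 0.75, subunits of the factor that carries interferon signals to DNA, did not pass. Of the genes measured, 10 of 29 were called without shScr2 replicate A, 7 of 28 without replicate B and 25 of 33 without mir128 replicate A, a fit that also lets in genes detected on replicate B alone. In the authors' processed values 11 of the 28 were called, with a median of 0.43. Against shScr1 the list median was 0.84, and for 13 of 28 members shScr2 lay below shScr1 at an unadjusted p under 0.05, against 1 above, where 12.2% of all genes passed that unadjusted threshold in either direction.

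Genes of the integrated stress response, the programme that ATF4 drives when translation is restrained, had a median of 1.15. Of 20 measured 10 were called higher and 0 lower, beside 14.1% and 12.1% of all genes. Ddit3, the transcription factor CHOP, read 10.99 and 11.33 in mir128 cells, against 8.81 and 9.21 in shScr2 cells (2.15 ± 0.20, adjusted p = 0.00219), with 10.07 and 10 in shScr1 cells between them. Atf3 read 7.49 and 6.94 in mir128 cells, against 5.25 and 4.93 in shScr2 cells (2.13 ± 0.23, adjusted p = 0.00303). Detected on only 1 shScr2 array, Atf3 passed the detection rule through the mir128 arrays alone, which favours a rise. Its change was 0.39 in the authors' processed values. Trib3, which binds AKT and CHOP, read 7.44 and 8.80 in mir128 cells, against 5.99 and 5.89 in shScr2 cells (2.18 ± 0.40, adjusted p = 0.013), but 7.82 and 7.85 in shScr1 cells, between the mir128 arrays. Vldlr, a lipoprotein receptor in the list, changed by 1.64 ± 0.14 and Sesn2, a sestrin, by 1.99 ± 0.23 (adjusted p = 0.00185 and 0.00375). Atf4 itself, at 0.16, and the amino acid synthesis genes Asns, Phgdh and Psat1 did not pass. Against shScr1 the list median was 0.39, and 13 of 20 members were lower in shScr2 than in shScr1 at an unadjusted p under 0.05, against 1 higher; 0 members differed between the scrambled groups after adjustment. Of the 20, 8 were called without shScr2 replicate A and 7 without replicate B.

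Glutathione transferases and NRF2 targets, which detoxify reactive compounds, were called higher in 7 of 17 cases, beside 14.1% of all genes. Their median was 0.41. After Gstt1, the called genes were mostly other transferases: Gstm1 changed by 1.89 ± 0.25, Gstk1 by 1.40 ± 0.19 and Gsta4 by 2.32 ± 0.40 (adjusted p = 0.00534, 0.00582 and 0.0103). The classical NRF2 targets Nqo1, Gclm and Srxn1 did not pass, at -0.10, 0.05 and 0.32. The list's count was 4 of 17 without shScr2 replicate A and 1 of 18 without replicate B, where Gstm1, Gstk1 and Gsta4 were among those lost.

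Ribosomal protein genes were called lower in 12 of 52 cases and higher in 0, with a median of -0.42. Below Rplp0 and Rpl29, Rpl12 read 12.76 and 12.77 in mir128 cells, against 14.22 and 14.20 in shScr2 cells (-1.45 ± 0.14, adjusted p = 0.00246). Rpl13a read 9.85 and 9.75 in mir128 cells, against 11.19 and 11.28 in shScr2 cells (-1.43 ± 0.15, adjusted p = 0.00293). In these 4 genes the replicates of each group lay within 0.2 log2 units. The share called lower, 12 of 52, stood beside 12.1% of all genes, and many ribosomal proteins have pseudogene copies that a probe can also read. Without shScr2 replicate A or replicate B 4 of 54 measured genes were called, and in the authors' processed values 19 of 52.

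Core histone genes split by class, a split noticed after their values were seen. Of 12 measured H2A genes 8 were called lower and all 12 had negative changes, between -2.61 and -0.77. Of 9 H2B genes 0 were called, at between -0.08 and 0.99, and 8 had positive changes. Of 8 H4 genes 0 were called, but 7 had negative changes, with a median of -0.40. Among 8 H3 genes 1 was called lower and 7 had negative changes, with a median of -0.60. H3c7 read 4.63 and 4.90 in mir128 cells, against 7.14 and 7.23 in shScr2 cells (-2.42 ± 0.17, adjusted p = 0.00112). H2ac8 changed by -1.80 ± 0.16 (adjusted p = 0.00185). Both genes lay near the lowest detected levels of the mir128 arrays, 4.71 and 4.83, and H3c7 was detected on 1 of these arrays. Without background correction H3c7 changed by -0.98 and H2ac8 by -0.65. In the authors' processed values the changes were -0.41 for H3c7 and -0.25 for H2ac8. Those values gave 6 genes of the whole histone list called lower and 2 higher. H2A genes are near-identical copies, so probes may read more than 1 of them and the 12 are not separate observations. The list also holds 2 genes of the linker histone H1, 1 of them called lower. Of all genes tested 12.1% were called lower. Over the whole list 10 of 39 were called lower, 2 of 40 without shScr2 replicate A and 2 of 41 without replicate B, and with arrays scaled to a common median 12 were lower and 1 higher.

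Cholesterol synthesis genes were called lower in 6 of 16 cases and higher in 0, beside 12.1% and 14.1% of all genes. Their median was -0.47. Msmo1, a sterol demethylase, read 8.76 and 8.81 in mir128 cells, against 10.30 and 10.20 in shScr2 cells (-1.46 ± 0.18, adjusted p = 0.0044), and kept its call with any array left out. Srebf2, the transcription factor that drives the pathway, changed by -1.0 ± 0.17 and Sqle, squalene epoxidase, by -0.83 ± 0.15 (adjusted p = 0.00968 and 0.0116). Hmgcs1, at -0.29, and Lss, at 0.13, did not pass. Median scaling of the arrays left 2 of the 16 called. Against shScr1 the median was -1.26, and 10 of the 16 members were lower in shScr2 than in shScr1 cells at an unadjusted p under 0.05, and 0 higher. The count was 1 of 16 without shScr2 replicate A and 1 of 17 without replicate B.

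Growth factors, binding proteins and receptors were called higher in 8 of 17 cases and lower in 1, beside 14.1% and 12.1% of all genes. With no detection filter 6 of 24 were called higher. Egfr, the EGF receptor, read 10.95 and 11.34 in mir128 cells, against 9.25 and 9.39 in shScr2 cells (1.82 ± 0.18, adjusted p = 0.0026). The mean over the probes of Egfr gave 1.11. Igf1, insulin-like growth factor 1, read 11.81 and 11.83 in mir128 cells, against 10.81 and 10.77 in shScr2 cells (1.03 ± 0.15, adjusted p = 0.00742). Pdgfrb, the PDGF receptor of mural cells, read 8.26 and 7.17 in mir128 cells, against 6.01 and 5.48 in shScr2 cells (1.97 ± 0.37, adjusted p = 0.013). The IGF-binding proteins moved apart: Igfbp4 read 11.36 and 11 in mir128 cells, against 12.70 and 12.62 in shScr2 cells (-1.48 ± 0.17, adjusted p = 0.0039), and changed by -0.44 against shScr1 (adjusted p = 0.109), while Igfbp7 changed by 1.03 ± 0.21 (adjusted p = 0.0185). Only Egfr was called higher and only Igfbp4 lower without shScr2 replicate A or B, and in the authors' processed values 4 were higher and 1 lower.

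Of the TGF-β pathway, 4 of 20 genes were called higher and 2 lower, shares near those of all genes (14.1% and 12.1%), and single members are given for description. The ligand gene Tgfb3 read 9.46 and 9.58 in mir128 cells, against 7.66 and 7.64 in shScr2 cells (1.87 ± 0.18, adjusted p = 0.00232). The receptor gene Tgfbr1 changed by 1.33 ± 0.18 and the feedback inhibitor Pmepa1 by 2.14 ± 0.32 (adjusted p = 0.00566 and 0.00704). Detected on only 1 shScr2 array, Pmepa1 passed the detection rule through the mir128 arrays alone, which favours a rise. Its change was 0.37 in the authors' processed values. Id3, a target of the BMP branch, changed by -0.87 ± 0.19 and Ltbp4, which binds latent TGF-β, by -1.09 ± 0.20 (adjusted p = 0.0226 and 0.0118). Of the TGF-β genes 2 of 20 were called without shScr2 replicate A, and without replicate B 1 of 21, Tgfb3.

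The matrix changed gene by gene. Basement membrane genes were called higher in 5 of 14 cases and lower in 0, beside 14.1% and 12.1% of all genes. Col4a2, a collagen IV chain, read 12.32 and 11.61 in mir128 cells, against 10.18 and 10.37 in shScr2 cells (1.68 ± 0.25, adjusted p = 0.00704), and its partner Col4a1 changed by 1.31 ± 0.23 (adjusted p = 0.0104). Of 11 fibrillar and other collagens 2 were called higher and 1 lower, near the 14.1% and 12.1% of all genes. Col18a1 changed by 1.26 ± 0.15, Col15a1, undetected in shScr2 cells, by 0.71 ± 0.15 and Col1a2 by -0.85 ± 0.17 (adjusted p = 0.0043, 0.0193 and 0.0171). Tnc, tenascin C of remodelling tissue, read 10.71 and 10.20 in mir128 cells, against 7.69 and 7.88 in shScr2 cells (2.67 ± 0.24, adjusted p = 0.00187; 1.53 with the mean of its probes). Of the 13 measured genes in the list that holds Tnc, 4 were called higher and 2 lower, beside 14.1% and 12.1% of all genes. Those called lower were Has1 at -1.12 and Cd44 at -1.26. Mfap5, a microfibril protein, changed by 1.90 ± 0.15 (adjusted p = 0.00135). Of 14 matrix proteases and their inhibitors 4 were called higher and 1 lower, beside 14.1% and 12.1% of all genes, with a median of 0.08. Mmp11, stromelysin 3, changed by 1.98 ± 0.33, Adamts5, an aggrecanase, by 1.29 ± 0.18 and Mmp2, a gelatinase, by 0.91 ± 0.15 (adjusted p = 0.00945, 0.00652 and 0.01), and Plaur, the urokinase receptor, by 0.93 (adjusted p = 0.0279). Mmp23, a membrane metalloproteinase, was the member called lower and read 5.40 and 5.21 in mir128 cells, against 7.38 and 7.07 in shScr2 cells (-1.92 ± 0.17, adjusted p = 0.00193; -0.37 in the authors' processed values). Tnc, Mfap5, Col18a1 and Mmp23 kept their calls with any array left out, while Col4a2, Col4a1 and Col1a2 lost them without shScr2 replicate A and without replicate B, when 0 of the 14 basement membrane genes passed.

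**Figure D3:**
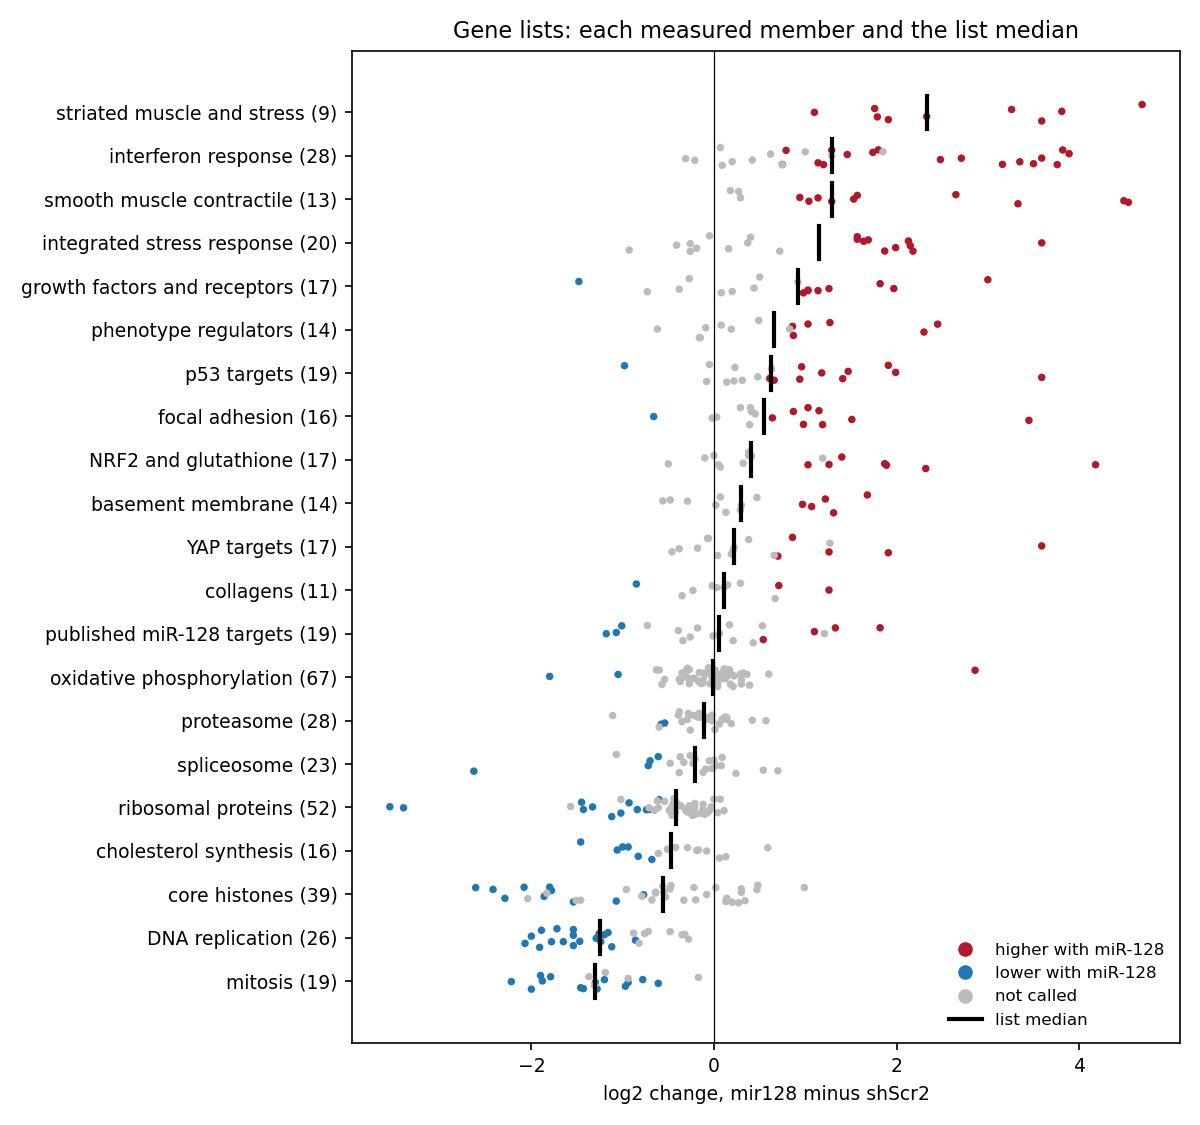
Log2 change, mir128 minus shScr2, of every measured member of 21 gene lists, with the number measured in brackets, red for called higher, blue for called lower and grey for not called; vertical scatter within a row is only to separate points. The bar is the list median, which runs from 2.33 for the striated muscle list to -1.30 for the mitosis list.

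Genes known as miR-128 targets from work in several species, a list compiled as background knowledge and not from these files, did not move one way. Of 19 measured, 4 were called higher and 3 lower, beside 14.1% and 12.1% of all genes, with a median of 0.06. The 3 called lower were Phf6, a chromatin-binding plant homeodomain protein, Casc3, of the exon junction complex, and Rxra, a nuclear receptor. Phf6 read 7.10 and 7.35 in mir128 cells, against 8.20 and 8.38 in shScr2 cells (-1.07 ± 0.18, adjusted p = 0.00965), with 8.10 and 8.34 in shScr1 cells. Casc3 read 8.50 and 8.83 in mir128 cells, against 9.81 and 9.88 in shScr2 cells (-1.18 ± 0.18, adjusted p = 0.00748). Rxra changed by -1.01 ± 0.15 (adjusted p = 0.00742). Each of the 3 had separate groups, and each lost its call without shScr2 replicate A or without replicate B. Egfr, Tgfbr1, Zeb1 and Sirt1 were the members called higher, at 1.82, 1.33, 1.10 and 0.54. Bmi1, at 6.51 and 7.74 in mir128 cells, against 7.01 and 7.27 in shScr2 cells, had overlapping groups, with a change of -0.01 (adjusted p = 0.98) that was 0.61 without mir128 replicate A and -0.63 without replicate B. E2f3 changed by 0.21 (adjusted p = 0.47). Seed pairing in messages was not analysed here.

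Among DNA methylation genes Dnmt1, the maintenance methyltransferase, read 7.37 and 8.19 in mir128 cells, against 9.53 and 9.67 in shScr2 cells (-1.82 ± 0.27, adjusted p = 0.0074), and Dnmt3b, a de novo enzyme, changed by -0.92 ± 0.24 (adjusted p = 0.037). Both lost their calls without shScr2 replicate A and without replicate B, and Dnmt3b also without mir128 replicate A or either shScr1 array. Of the microRNA machinery, Dicer1 changed by 1.11 ± 0.21, and Ago2 by -0.87 ± 0.23 (adjusted p = 0.0143 and 0.0385), both lost without either shScr2 array, and Ago2 without any 1 of the 6 arrays. Of oxidative phosphorylation genes 64 of 67 were not called, and of proteasome genes 26 of 28, where 73.8% of all genes were not called. The exceptions in the respiratory chain were Uqcr10, Ndufc2 and Cox6a2. Uqcr10 read 11.08 and 11.13 in mir128 cells, against 12.94 and 12.87 in shScr2 cells (-1.80 ± 0.14, adjusted p = 0.00143), and Ndufc2 changed by -1.05. Cox6a2, the muscle isoform of a cytochrome oxidase subunit, read 7.57 and 8.27 in mir128 cells, against 5.19 and 4.93 in shScr2 cells (2.86 ± 0.26, adjusted p = 0.00208). Detected on only 1 shScr2 array, Cox6a2 passed the detection rule through the mir128 arrays alone, which favours a rise. Its change was 0.65 in the authors' processed values.

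Promoter windows from RefSeq (GRCm38.p6), 250 bases before to 50 after each gene start, were found for 6830 of the 8336 genes and searched on both strands. The CArG box is the SRF site, the interferon-stimulated response element (ISRE) was searched as GAAANNGAAA, and the E2F site, bound by the factors that time S phase, as TTTCCCGC or TTTGGCGC. A CArG box stood in 4 of 9 striated muscle list promoters (44.4%), those of Acta1, Asb2, Lmcd1 and Myl7. It stood in 1 of 10 contractile ones (Vcl), beside 1.65% of all windows. Only list members that passed the detection rule were counted. In the striated muscle list these were 9 of 18 with a probe, all called higher, and Asb2 and Myl7 passed through the mir128 arrays alone. The 44.4% thus holds for genes selected partly for being high in mir128 cells. The CArG box stood in 3.50% of windows of genes called higher, 0.837% of those called lower and 1.46% of those not called. An ISRE stood in 13 of 23 interferon list promoters (56.5%), beside 3.65% of all windows, and 2 of the 13 genes, Eif2ak2 and Stat2, were not called. An E2F site stood in 7 of 24 replication list promoters (29.2%) and 1 of 16 mitosis list promoters (6.25%), beside 3.34% of all windows. It also stood in 3 of 23 interferon list windows (13%), a list with 0 genes called lower. Windows of genes called lower held it in 5.62% of cases and those of genes called higher in 2.08%. A match describes letters in a window and does not show that a factor bound there.

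The 6 windows below were picked after the values were seen, to show the motif in 2 genes of each response. Capitals mark the matches, each sequence is given in the direction of transcription, and the positions are chr6:112273508-112273807 plus strand for Lmcd1, chr12:103355952-103356251 minus strand for Asb2, chr19:34583279-34583578 plus strand for Ifit3, chr3:142620413-142620712 plus strand for Gbp2, chr1:20820263-20820562 minus strand for Mcm3 and chr11:98907901-98908200 plus strand for Cdc6.
Lmcd1: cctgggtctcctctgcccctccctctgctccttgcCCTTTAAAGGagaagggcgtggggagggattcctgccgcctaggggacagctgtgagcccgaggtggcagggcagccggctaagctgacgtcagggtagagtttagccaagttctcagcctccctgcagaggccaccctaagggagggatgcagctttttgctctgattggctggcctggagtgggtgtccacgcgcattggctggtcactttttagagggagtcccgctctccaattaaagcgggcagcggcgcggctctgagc
Asb2: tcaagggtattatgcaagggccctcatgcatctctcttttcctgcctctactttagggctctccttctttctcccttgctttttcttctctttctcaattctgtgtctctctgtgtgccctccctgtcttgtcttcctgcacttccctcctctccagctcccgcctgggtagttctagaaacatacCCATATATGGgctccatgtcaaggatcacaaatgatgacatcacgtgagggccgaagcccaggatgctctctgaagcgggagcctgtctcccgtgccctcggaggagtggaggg
Ifit3: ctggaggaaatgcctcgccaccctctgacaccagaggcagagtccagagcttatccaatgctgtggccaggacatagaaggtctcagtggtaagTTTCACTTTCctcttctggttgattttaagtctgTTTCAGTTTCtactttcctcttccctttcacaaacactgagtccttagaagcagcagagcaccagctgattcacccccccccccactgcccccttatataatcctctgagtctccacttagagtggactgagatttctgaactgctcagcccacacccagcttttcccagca
Gbp2: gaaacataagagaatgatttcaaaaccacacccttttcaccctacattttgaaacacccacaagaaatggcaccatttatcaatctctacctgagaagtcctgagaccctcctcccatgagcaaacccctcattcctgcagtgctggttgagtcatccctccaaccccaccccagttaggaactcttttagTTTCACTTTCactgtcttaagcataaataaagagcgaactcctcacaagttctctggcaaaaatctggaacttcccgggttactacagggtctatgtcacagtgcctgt
Mcm3: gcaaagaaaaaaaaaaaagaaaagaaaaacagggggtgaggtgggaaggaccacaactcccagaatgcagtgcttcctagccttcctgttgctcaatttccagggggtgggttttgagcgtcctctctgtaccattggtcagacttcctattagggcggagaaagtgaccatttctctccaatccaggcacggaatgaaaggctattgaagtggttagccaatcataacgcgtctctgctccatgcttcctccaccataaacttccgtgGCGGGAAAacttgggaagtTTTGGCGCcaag
Cdc6: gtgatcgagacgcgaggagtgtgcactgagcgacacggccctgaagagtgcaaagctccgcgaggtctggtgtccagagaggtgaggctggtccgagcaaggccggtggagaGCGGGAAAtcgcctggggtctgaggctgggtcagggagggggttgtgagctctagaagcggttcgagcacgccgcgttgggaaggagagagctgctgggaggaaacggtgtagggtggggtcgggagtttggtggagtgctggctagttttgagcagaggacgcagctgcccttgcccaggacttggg
Lmcd1 and Asb2 each hold 1 CArG box, Ifit3 holds 2 ISRE matches and Gbp2 1, and Mcm3 holds 2 E2F matches and Cdc6 1.

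**Figure D4:**
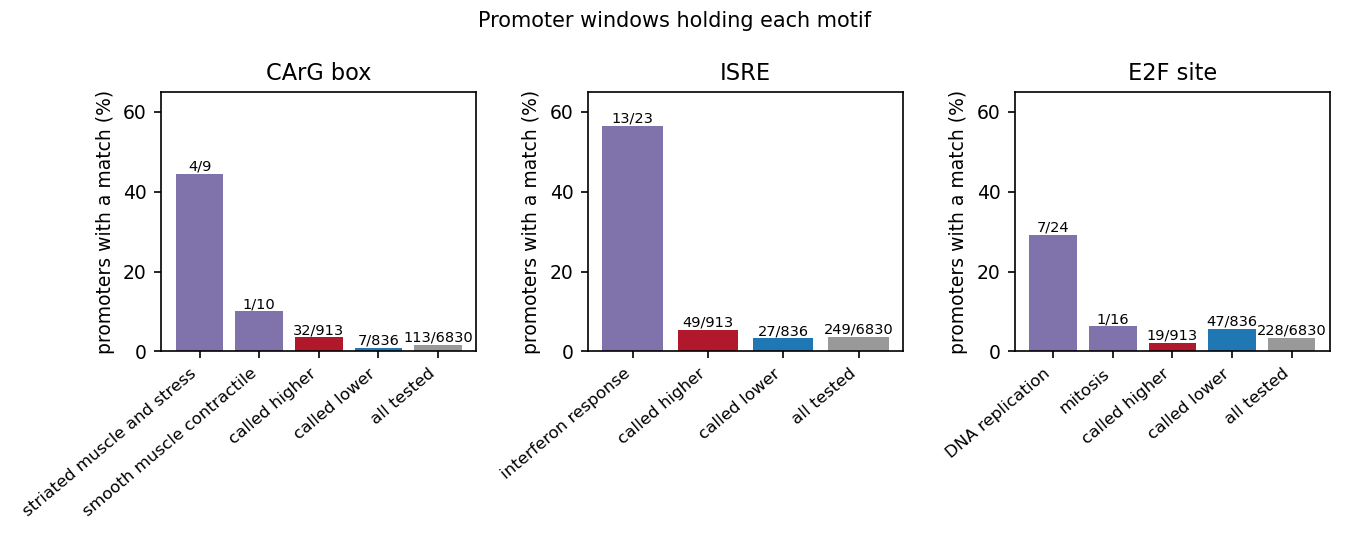
Percent of promoter windows with at least 1 match to the CArG box (left), the ISRE (centre) and the E2F site (right), for the gene lists named, genes called higher or lower with miR-128 and all genes tested with a window; numbers over the bars give windows with a match over windows searched. The CArG box stood in 44.4% of striated muscle list windows, the ISRE in 56.5% of interferon list windows and the E2F site in 29.2% of replication list windows. List windows are those of members that passed the detection rule.

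The 2 scrambled groups themselves differed at 7 of the 8336 genes (0.084%), 2 higher and 5 lower in shScr2, while 1019 passed an unadjusted p under 0.05. In this fit the change of those 7 with miR-128 differed between the controls, since the difference between the scrambled groups is also the test of the difference between the comparisons. Dcn, decorin, a small matrix proteoglycan, read 10.26 and 9.89 in mir128 cells, against 7.87 and 7.83 in shScr2 cells (2.23 ± 0.18, adjusted p = 0.00156), but 10.33 and 10.13 in shScr1 cells (scrambled groups: adjusted p = 0.0121). Bace2, a membrane protease, read 7.83 and 7.84 in mir128 cells, against 5.74 and 5.79 in shScr2 cells and 7.87 and 7.77 in shScr1 cells. For both genes mir128 and shScr1 lay together and shScr2 alone was lower.

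Gdf10, a BMP family ligand, read 5.97 and 7.01 in mir128 cells, against 5.01 and 4.79 in shScr2 cells and 8.68 and 8.54 in shScr1 cells, a log2 change of 1.59 against shScr2 and of -2.12 against shScr1. Detected on only 1 shScr2 array, Gdf10 passed the detection rule through the mir128 arrays alone, which favours a rise over shScr2. The flavin monooxygenase gene Fmo1 and the early growth response gene Egr2 showed the same order as Gdf10. Fmo1 was at least 2.44-fold higher than in shScr2 cells, where it was undetected, with a log2 change of -1.47 against shScr1, and Egr2 changed by 1.07 against shScr2 and -0.87 against shScr1. Parm1, a membrane mucin-like protein, read 11.11 and 11.11 in mir128 cells, against 8.58 and 8.57 in shScr2 cells and 6.62 and 6.44 in shScr1 cells. Lims2 followed the same order, at 11.41 and 11.54 in mir128 cells, against 7.99 and 8.05 in shScr2 cells and 6.22 and 6.13 in shScr1 cells. For both genes mir128 was above either control. Without any 1 of the shScr2 or shScr1 arrays 0 genes were called between the scrambled groups.

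**Figure D5:**
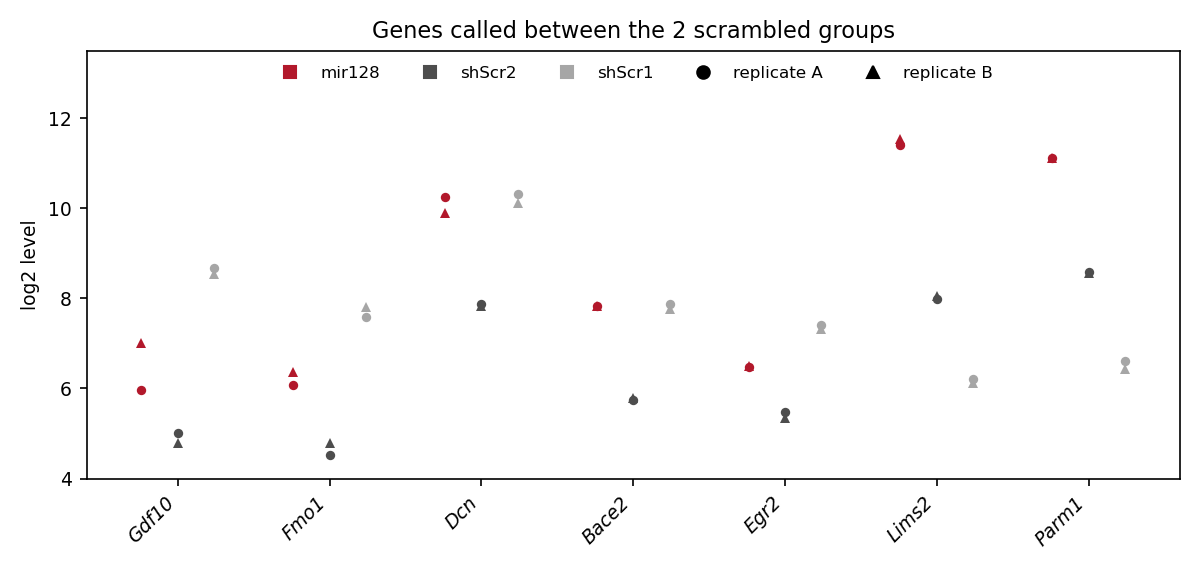
Log2 level on each array of the 7 genes called between the scrambled groups, with mir128 in red, shScr2 in dark grey and shScr1 in light grey, circles for replicate A and triangles for replicate B. Gdf10, Fmo1 and Egr2 have mir128 between the controls, Dcn and Bace2 have mir128 level with shScr1, and Lims2 and Parm1 have mir128 above both.

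Beyond these genes, other large changes differed in size between the controls without a call. Prl2c4 read 11.22 and 11.32 and Prl2c3 11.79 and 11.90 in shScr1 cells, giving -0.77 and -0.79 against that control (adjusted p = 0.175 and 0.143), while Actg2 gave 5.74 and Oasl2 1.70. Other genes named above that were not called against shScr1 were Gstm1 at 0.72, Trib3 at 0.29, Tnfrsf10b at -0.68, Id3 at -0.53, Cdk1 at -0.92, Mcm3 at -1.13, Sirt1 at 0.20, Col15a1 at 0.27, Lims1 at -0.30 and Lpl at 0.82. In the same fit and over the same genes, 1198 genes were called higher and 1020 lower against shScr1, a comparison that shares the mir128 arrays. Dcn is also a marker of fibroblasts, whose summed linear marker level was 1662 and 1304 in mir128 cells, against 563 and 580 in shScr2 cells. Dcn was the brightest of these markers on every array, at 10.26 and 9.89 in mir128 cells, and read 10.33 and 10.13 in shScr1 cells. The sum was not computed for shScr1 cells. Dcn was 1 of 6 measured fibroblast markers called higher, with Pdgfra at -0.73 and not called. Lpl, lipoprotein lipase and an adipocyte marker, read 8.44 and 9.60 in mir128 cells, against 6.58 and 6.62 in shScr2 cells and 8.19 and 8.22 in shScr1 cells, while Adipoq, Fabp4, Plin1 and Cidec were undetected on all mir128 and shScr2 arrays. Among leukocyte markers Lyz2 and Cd3e were called higher and Cd14 lower. The part of such cells in the results was not tested.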

How the data were processed

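Total RNA was hybridised as biotin-labelled samples to Illumina bead arrays, 1 per sample. Each array's 25697 probes have, in the deposited non-normalised table, a linear intensity and a p-value of detection, per the file headers. A second deposited table held the authors' processed values, which look like log2 units and share a median of 7.77; their transform and background handling were not stated, and they served only as an alternative. GenomeStudio 2011.1, limma and lumi appear in the submitters' processing notes, with no role given.

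Intensities were background-corrected and quantile-normalised with neqc in limma 3.58.1 (R 4.3.3), with an offset of 16 and the detection p-values standing in for control probes. A gene entered when a probe with a single symbol was detected at p under 0.05 on both arrays of mir128 or of shScr2. Where several passed, the brightest over the 6 arrays was taken. With the mean over the probes instead, 132 of the 136 called genes followed by name kept their call. Some changes were smaller with that mean, among them Lig1 at -1.35, Sesn2 at 1.38 and Gstm1 at 1.08. The platform annotation gave 1 symbol to 23978 probes and none to 1719, and 23962 probes were matched to RefSeq through their gene IDs. Group means of mir128, shScr2 and shScr1 were fitted with lmFit and eBayes over all 6 arrays, which share 1 estimate of the spread, with Benjamini-Hochberg adjustment over the 8336 genes. The labels call the samples biological replicates but do not say whether the cultures came from separate animals, so p-values measure the spread between these samples.

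On simulated data for this comparison with 8336 genes, 0%, 28%, 90% and 94% of planted log2 changes of 0.5, 1, 2 and 3 were recovered, and 8 of 114 calls were false. The simulation gave a gene the same spread in every group and planted 50 changes of each size. In the data the mir128 replicates differed more than those of shScr2 and 26.2% of genes were called, so these rates need not hold for them. The genes followed by name were the 12 largest called changes each way, genes fixed by name and the largest differences between the scrambled groups. They also included the 4 called members with the smallest adjusted p in each list and members called against the list's majority. Not every list or gene followed is described in the text. Lists of inflammation, secretory pathway, endoplasmic reticulum chaperone, Notch and lysosome genes are among those left out. Other list members were added as examples after their values were seen. Members and lists were chosen with earlier results of these data known. Alternatives covered background correction, scaling, the detection rule, probe choice, the arrays fitted, array weights, the variance model, a replicate block and leaving out each array.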

Additional observations from a re-analysis of the deposited data

Results flagged for a closer look

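Probes without a gene symbol were outside the comparison of named genes. By the same detection rule 709 of them could be tested, and 162 were called between mir128 and shScr2 cells (22.8%), 84 higher and 78 lower, with log2 changes between -3.33 and 3.57. They were picked out as a signal in data that the gene results do not use, and their genes are not named here.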

How the results depend on the processing

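The count of genes called between mir128 and shScr2 was within 1.5 times of 2184 under every alternative to the processing except these. With only the 4 arrays of mir128 and shScr2 it was 1094 (622 higher, 472 lower), and with array weights per group 1413 (773 higher, 640 lower). Scaling arrays to a common median called 1729, but 1351 higher and 378 lower, so that 78.1% of calls were higher, and it moved the median of all genes to 0.28. Leaving out 1 array at a time gave 337 to 3328 genes called, 219 to 1789 higher and 118 to 1539 lower. Leaving out an array of mir128 or shScr2 leaves the detection rule to the other array of that group, and the lone sample is assumed to vary like the other groups. The 7 genes called between the scrambled groups became 29 without background correction, 36 with an offset of 50, 4 with median scaling, 21 in the authors' processed values, 15 at a detection p under 0.01, 540 with array weights, 47 with trend and robust on, and 0 to 374 with 1 array left out. The replicate numbers are shared by the groups, and same-numbered samples deviated together with correlations between 0.141 and 0.157, over 2 numbers only. A replicate block gave 2166 genes called between mir128 and shScr2 and 1 between the scrambled groups. Of 136 called genes followed by name, 134 kept their call with the block, 62 without shScr2 replicate A and 55 without replicate B. The change of Lims1, -0.66, was 0.41 with no detection filter and 0.41 when detected on at least 2 of 6 arrays, and lay between -0.79 and 0.79 with 1 array left out. Bmi1 lay between -0.63 and 0.61 in those fits. The cause was not tested. Changes of dim genes are limited by signal over background.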
